A study of Mus musculus with 4 samples.

Results

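The DNA replication and G1/S genes are 39 genes that prepare replication origins, copy DNA, supply nucleotides or drive the entry into S phase. They were chosen by symbol, each matched to 1 Ensembl gene in GENCODE M21, and make up 39 of the 54838 genes counted in each library. All 39 passed the low-count filter. RNA was sequenced from 2 lines of mouse embryonic stem cells with the E14 background (clone E14Tg2a.4, 129/Ola), both grown on gelatin in serum with leukemia inhibitory factor. The wild-type group holds 2 libraries of the unedited cells. The knock-in group holds 2 libraries of MLC460, an E14 line in which CRISPR/Cas9 placed monomeric enhanced green fluorescent protein (mEGFP) at the N-terminus of endogenous p300, a histone acetyltransferase. MLC460 is 1 line, so the tag and anything else that arose while the line was derived cannot be told apart. The labels call the 2 libraries of each line biological replicates and say no more about their origin, so p-values measure the spread between these libraries.

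Replication begins with licensing in G1. The origin recognition complex (ORC) binds DNA, Cdc6 and Cdt1 load the MCM helicase onto it, and geminin (Gmnn) holds Cdt1 back once S phase has begun. Kinases including cyclin E with Cdk2 then fire the origins: Cdc45 and the GINS complex join the MCM ring, the clamp Pcna is loaded by replication factor C, and the polymerases copy both strands. Many of these genes are known targets of E2F transcription factors. Mouse embryonic stem cells divide fast, with a short G1 phase.

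Counts assigned to genes ranged from 18946731 to 26553998 per library. The embryonic stem cell markers were present, with a summed level over 10 genes of 6373 to 6450 CPM (counts scaled to library size) in wild-type and 6538 to 6968 CPM in knock-in libraries. Marker sums were 7.92 to 9.73 CPM for primitive endoderm, 4.56 to 4.82 CPM for mesoderm, 60.9 to 73.5 CPM for trophoblast and 164 to 253 CPM for neuroectoderm. Tfap2c made up most of the trophoblast sum (34.2 to 47.4 CPM) and Tubb3 most of the neuroectoderm sum (117 to 205 CPM). Sox17, Foxa2, Afp, Mesp1, Cdx2, Elf5, Gata3 and Zic1 of these lists did not pass the low-count filter. The fibroblast and feeder sum was 19.7 and 24.4 CPM in wild-type and 14.2 and 14.9 CPM in knock-in libraries, with Lum and Twist2 at 0 counts in every library. Wild-type 2 stood apart. The Spearman rho between a library's deviation from the mean of the other 3 and GC content of the transcript was 0.65 for wild-type 2 and -0.43 to -0.27 for the others, over 15191 genes that are no independent replicates. Fold changes of the members are therefore mostly given with a correction for GC content beside the uncorrected value, and some also without wild-type 1 or wild-type 2.

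The promoters of these genes carried E2F letters more often than promoters in general. The window searched was the 250 bases before and 50 after each RefSeq start (GRCm38.p6), and 31 of the 39 genes had an entry. Some of these starts lie downstream of the GENCODE start, by 350 bases in Cdc6, 466 in E2f1 and 539 or 1156 in Mcm7. Letters near the GENCODE start can be missed in such genes. The letters were TTTCCCGC, TTTGGCGC, TTTCGCGC and TTTGCCGC on either strand, and a pair of them can overlap. They stood in the promoters of 14 of the 31 genes (45.2%), against 2.6% of all 27025 genes with a promoter entry. Of a fixed list of other replication pathway genes, 18 of 62 (29%) held them, and of a list of mitosis genes 0 of 24. The NF-Y box letters CCAAT, on either strand, stood in 19 of the 31 (61.3%), against 41.1% of all genes and 19 of 24 (79.2%) mitosis genes. A match is a string of letters and was not tested for binding.

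**Figure D1:**
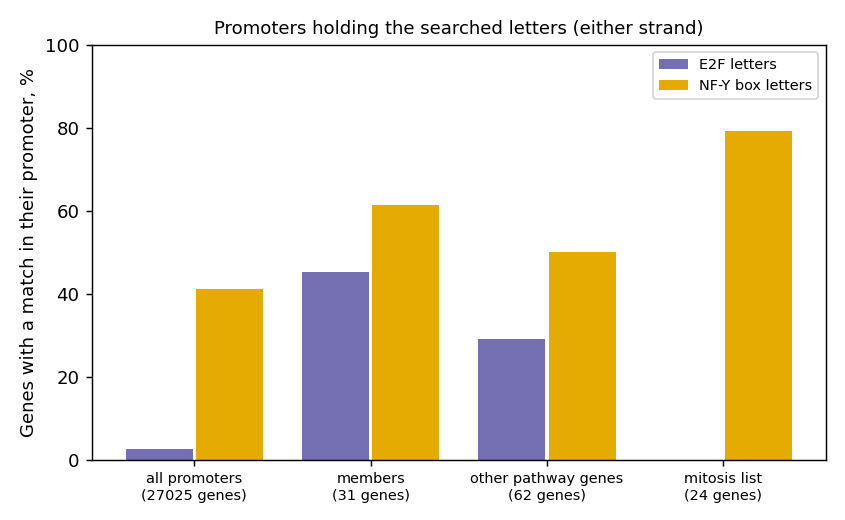
Share of genes (%) whose promoter window holds the E2F letters or the NF-Y box letters on either strand, for all genes, the replication and G1/S members, the other pathway genes and the mitosis list. The E2F bars stand at 45.2% for the members and 2.6% for all genes, and the mitosis list has none.

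The last 170 bases before the start of 6 genes are shown to let the letters be seen in place, with E2F and NF-Y letters in capitals. Their RefSeq start lies at or before the GENCODE start, or 2 bases after it (Orc3). Mcm5, Mcm6, Orc3, Pola1 and Cdk2 hold both kinds or the E2F letters alone, and Mcm10, which is described further below, holds only NF-Y letters. All are read 5′ to 3′ on the gene's own strand. In Mcm5 and Mcm6 a pair of E2F matches overlap and run together in the capitals.
Mcm5 (chr8:75109339-75109508, plus strand): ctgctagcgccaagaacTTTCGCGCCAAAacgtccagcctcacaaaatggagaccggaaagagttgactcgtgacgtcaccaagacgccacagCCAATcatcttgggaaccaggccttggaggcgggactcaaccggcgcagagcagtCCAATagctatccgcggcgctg
Mcm6 (chr1:128359706-128359875, minus strand): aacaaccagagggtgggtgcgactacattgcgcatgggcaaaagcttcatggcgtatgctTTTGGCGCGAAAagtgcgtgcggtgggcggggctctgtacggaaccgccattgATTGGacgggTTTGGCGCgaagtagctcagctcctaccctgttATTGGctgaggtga
Orc3 (chr4:34614943-34615112, minus strand): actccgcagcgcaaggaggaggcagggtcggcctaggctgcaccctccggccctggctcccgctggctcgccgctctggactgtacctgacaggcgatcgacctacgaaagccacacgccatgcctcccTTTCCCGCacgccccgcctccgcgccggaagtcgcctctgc
Pola1 (chrX:93632156-93632325, minus strand): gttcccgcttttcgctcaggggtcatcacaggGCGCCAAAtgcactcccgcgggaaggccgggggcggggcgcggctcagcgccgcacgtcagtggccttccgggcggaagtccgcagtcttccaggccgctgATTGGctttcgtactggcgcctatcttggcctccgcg
Cdk2 (chr10:128705052-128705221, minus strand): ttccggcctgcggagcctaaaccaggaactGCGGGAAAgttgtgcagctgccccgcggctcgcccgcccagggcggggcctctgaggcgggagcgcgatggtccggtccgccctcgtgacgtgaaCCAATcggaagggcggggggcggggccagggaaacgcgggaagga
Mcm10 (chr2:5012792-5012961, minus strand): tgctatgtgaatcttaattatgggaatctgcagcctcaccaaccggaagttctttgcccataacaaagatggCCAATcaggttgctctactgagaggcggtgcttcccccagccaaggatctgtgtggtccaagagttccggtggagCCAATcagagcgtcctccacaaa

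Transcript level, given as CPM per kilobase of exon so that genes can be compared, ranged widely among the members in the unstranded counts. Exon length merges all annotated transcripts of a gene, so genes with long or many annotated transcripts can read low. The clamp Pcna was highest, at 232 ± 35.6 in wild-type and 244 ± 12.5 in knock-in cells (SD, n = 2 each). Mcm3, Mcm5, Mcm7 and Rrm2 followed, and 10 of the 39 members had a mean over 100. Gins3, Orc5, Orc4, Ccne2 and Fen1 each had a mean under 10, which for Ccne2 and Fen1 is a lower limit because of shared exons. Neighbours in this order mostly could not be ranked: of 38 neighbouring pairs, 4 had ranges over the 4 libraries that did not overlap.

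**Figure D2:**
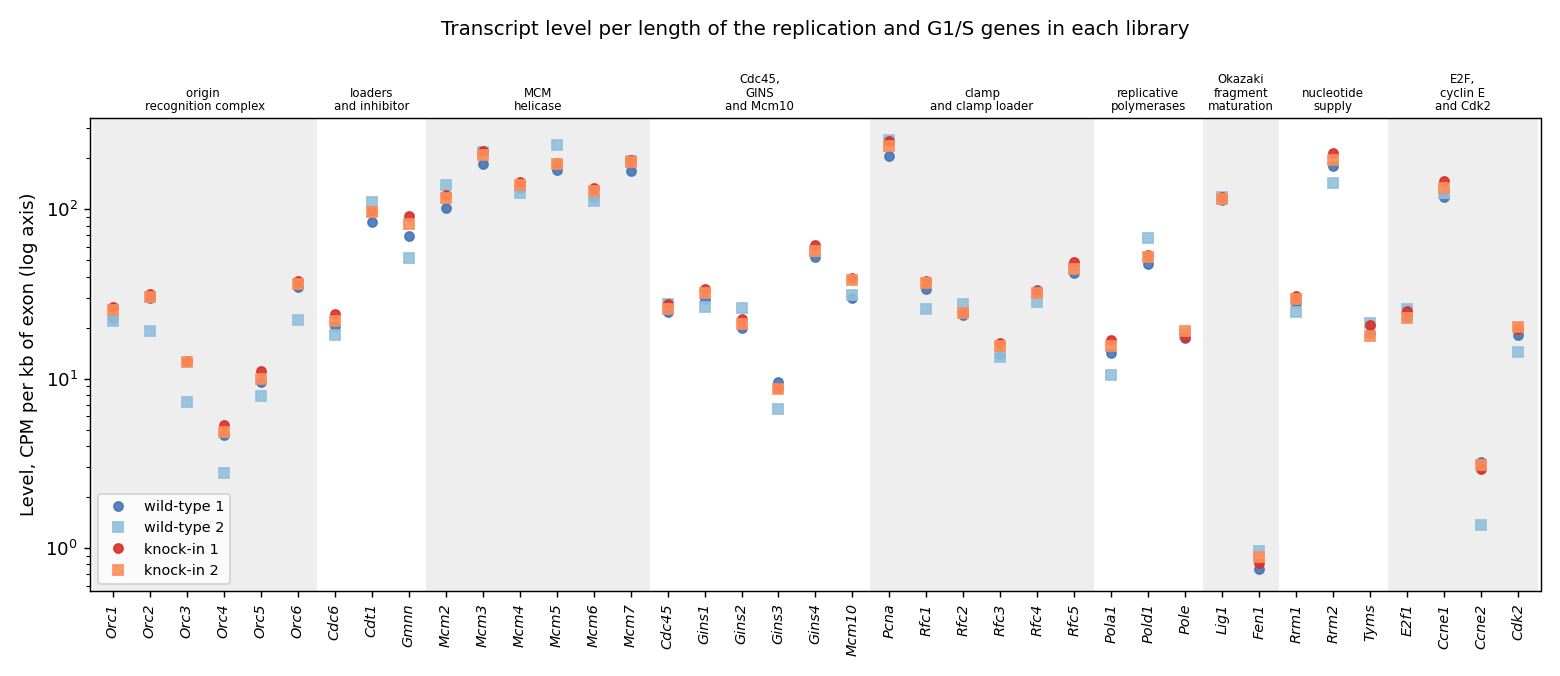
Level of each member in CPM per kilobase of exon (log axis) in the 4 libraries, ordered by role. The MCM genes, Pcna, Rrm2, Ccne1 and Lig1 lie near or above 100 in every library, the ORC genes lie under 40, and Fen1 lies under 1.

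The value for Fen1, the flap nuclease that trims Okazaki fragments, depends on the column of the files that is read. The files gave it 50 and 51 counts in wild-type and 48 and 40 in knock-in libraries. Of its 2422 exon bases, 78.8% are shared with Gm10143, annotated on the opposite strand, and reads over shared bases were set aside as ambiguous. In the deposited column for 1 strand, Fen1 and Gm10143 together had 3933 and 4080 counts in wild-type and 4221 and 2993 in knock-in libraries. The unstranded counts of the pair came to 1.56% of these. Fen1 is described at length because of this count, a choice made with its values known. The log2 fold change was -0.049 (edgeR adjusted p = 0.939) and 0.042 (adjusted p = 0.943) in the 2 single-strand columns, and -0.0036 in the unstranded counts.

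The other members that had over 1.1 times as many counts in the 2 strand columns together as in the unstranded column were Ccne2, Orc1, Gins2, Orc2 and Rfc4. Gins2 shares 67.3% of its exon bases with Gse1, Orc2 shares 29.8% with Nif3l1 and Ccne2 shares 17.4% with Ints8. Levels per kilobase of these genes are therefore lower limits. Annotated pseudogene copies exist for Pcna and Tyms, and reads that fit several copies were not assigned, so their levels are uncertain too.

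Between the lines, 0 of the 39 members were called by the quasi-likelihood test of edgeR at an adjusted p of 0.05, against 10 of 15191 genes tested (0.0658%). At an unadjusted p under 0.05, 2 members were higher in knock-in cells and 0 lower, beside 3.54% higher and 7.4% lower among all genes. With the GC correction 9 members were higher and 0 lower at that level, beside 10.7% and 6.93% of all genes. DESeq2 and limma-voom also called 0 members. The median log2 fold change of the members was 0.14, ranging from -0.13 to 0.51, and that of all genes tested was 0.00. In these bulk samples, more cells in S phase and more RNA per cell cannot be told apart.

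The direction was nevertheless uneven. The fold change was above 0 in 30 members and below 0 in 9, while 50.1% of all genes tested were above 0. In 19 members both knock-in libraries lay above both wild-type libraries, and in 0 both lay below. Among all genes tested 23.4% lay above and 23.9% below. After the correction 35 members were above 0 (all genes: 58.6%), and 23 lay above without overlap and 0 below (all genes: 31.7% and 18.5%). The median with the correction was 0.17, against 0.06 for all genes, and again 0 members were called (all genes: 1.18% called, 50 higher and 130 lower against 1 higher and 9 lower without it). The summed level of the members was 8916 and 9649 CPM in wild-type 1 and 2, and 10221 and 9761 CPM in knock-in 1 and 2. With this scaling the sum over all genes tested was higher in the knock-in libraries too. It was 963300 and 988490 CPM in wild-type 1 and 2, and 1036500 and 1013200 CPM in knock-in 1 and 2. The members' sums alone therefore do not show a rise particular to them.

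**Figure D3:**
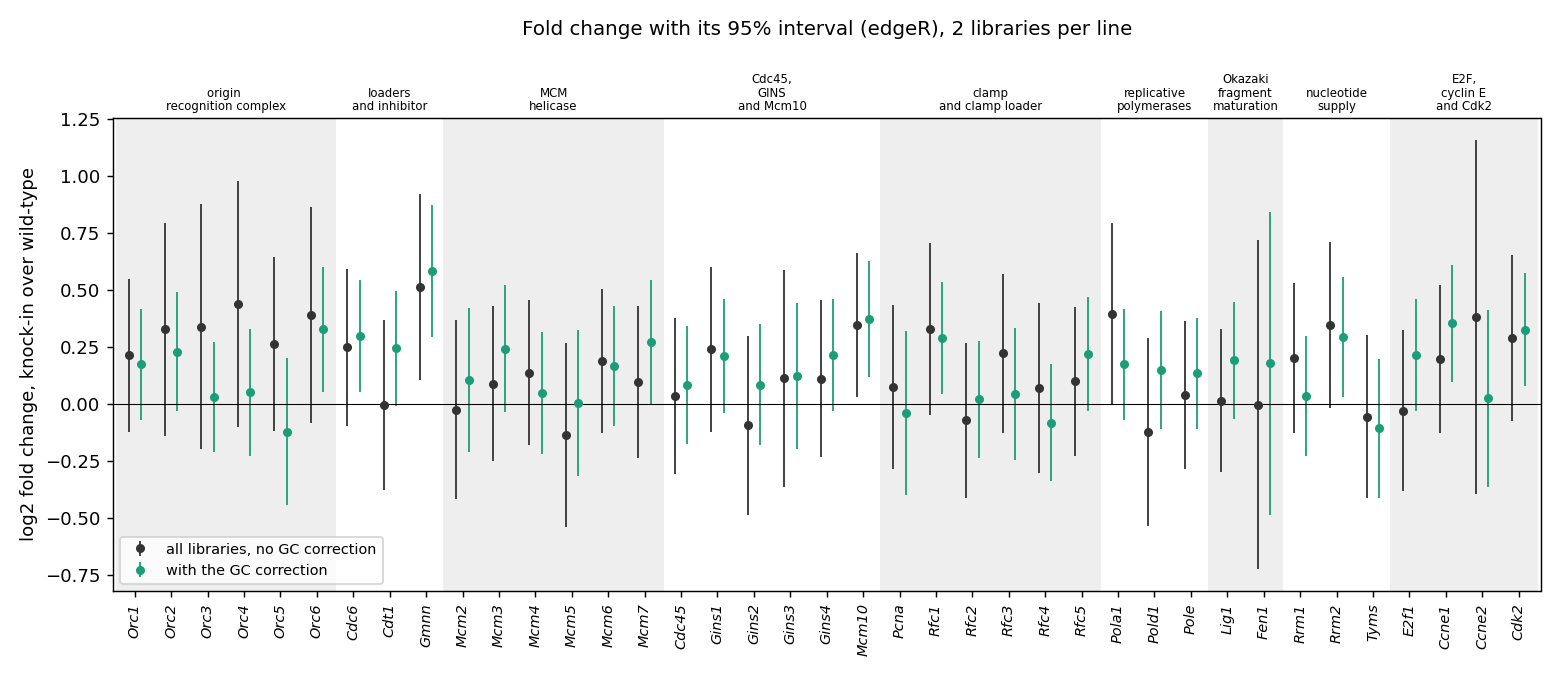
Log2 fold change of knock-in over wild-type for each member with its 95% interval (edgeR, 2 libraries per line), without and with the GC correction. Only the intervals of Gmnn and Mcm10 lie above 0 without the correction, and 9 do with it.

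The precision differed between the lines. The wild-type libraries lay further apart than the knock-in libraries in 34 of 39 members, with a median gap of 0.24 against 0.062 on the log2 scale. Wild-type 2 was below wild-type 1 in 20 members and above it in 19. Across the 39 members this gap followed transcript GC content (Spearman rho = 0.75), and the fold change between the lines ran the other way (rho = -0.68). With the GC correction the fold change rose with GC content (rho = 0.38), so the corrected values are not free of a GC trend. The median gap was then 0.19 for the wild-type and 0.096 for the knock-in libraries. The points share the same 4 libraries, and the fold change contains wild-type 2. In the 12 members under 46% GC wild-type 2 was lower (median gap -0.36) and the median fold change was 0.30, or 0.039 with the correction. In the 15 members over 50% GC the gap was 0.23 and the median fold change -0.0028, or 0.19 with it. In the 12 members between these bounds the median fold change was 0.24 without and 0.25 with the correction. For 38 of the 39 members the 95% interval without the correction lay within a 2-fold change in either direction, and for 23 within 1.5-fold. The exception to the first was Ccne2.

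Leaving out 1 library at a time moved the calls. Such a fit has a lone library in 1 line, and only the pair of the other line gives the spread. Without wild-type 1, 16 members were called higher and 3 lower (Mcm5, Gins2 and Pold1), beside 19% and 13.1% of all genes tested. Without wild-type 2, 1 was higher (Mcm10) and 0 lower, beside 0.711% and 3.68%. Without knock-in 1 none was called (all genes: 0.0063% higher and 0.101% lower), and likewise without knock-in 2 (0.0124% and 0.0866%). With the GC correction, 4 members were higher without wild-type 1 (Orc2, Orc6, Gmnn and Cdk2) and 0 lower, beside 6.01% and 4.02% of all genes. Gmnn and Mcm10 were higher without wild-type 2 and 0 members lower, beside 1.98% and 2.01%. None was called without knock-in 1 (all genes: 0.126% and 0.466%) or without knock-in 2 (0.099% and 0.285%).

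**Figure D4:**
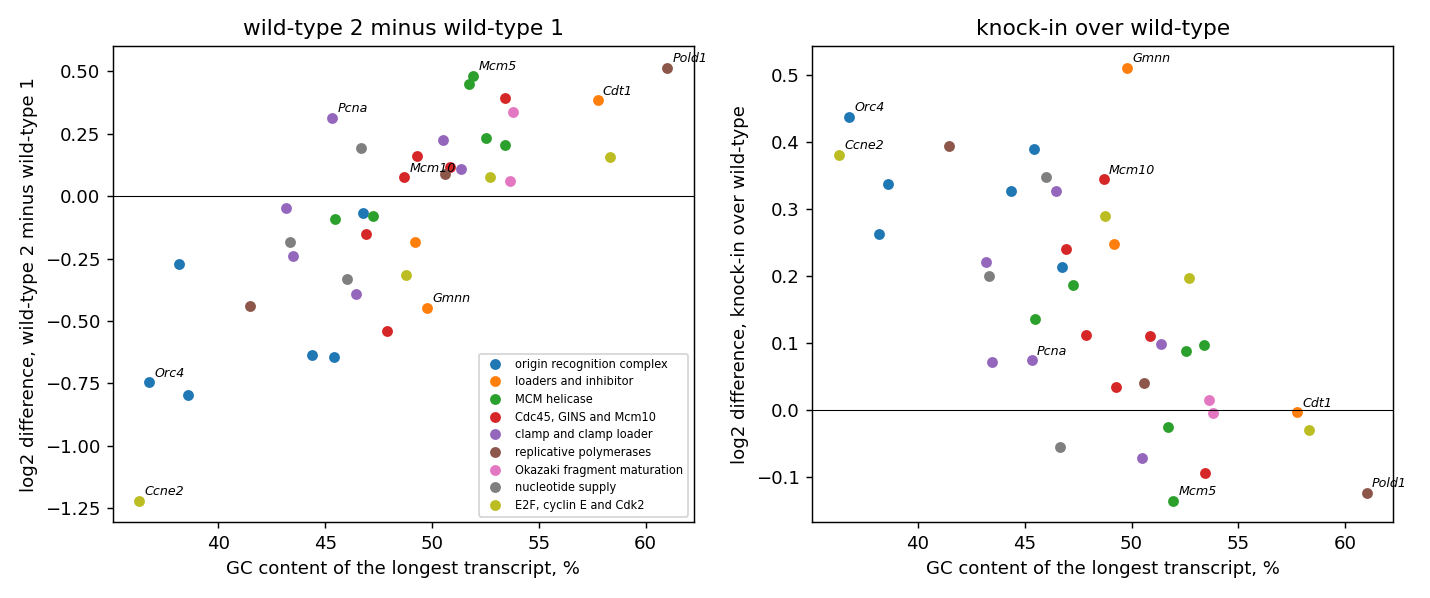
Left, log2 difference between the wild-type libraries against transcript GC content (%) for each member, coloured by role. Right, log2 fold change of knock-in over wild-type on the same axis. AT-rich members such as Orc4 and Ccne2 are low in wild-type 2 and positive between the lines. Pold1 (61.0% GC) and Mcm5 (51.9% GC) are high in wild-type 2 and negative between the lines.

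Geminin had the highest fold change of the 39. Gmnn (ENSMUSG00000006715, GRCm38 chromosome 13, 24751845 to 24761923, minus strand), the inhibitor of Cdt1, had 102 and 75.0 CPM in wild-type 1 and 2, and 133 and 120 CPM in knock-in 1 and 2. Both knock-in libraries lay above both wild-type libraries, and wild-type 2 was the lowest. The log2 fold change was 0.51 (SE 0.18, 95% interval 0.10 to 0.92), with an edgeR adjusted p of 0.408. With the GC correction it was 0.58 (SE 0.13), and the adjusted p of 0.0541 lay just above the threshold. Over 19 other settings the value stayed between 0.29 (without wild-type 2) and 0.79 (GC correction without wild-type 1). It passed without wild-type 1 (0.76, adjusted p = 9.67e-10), but so did 32.1% of all genes. It also passed with the GC correction when wild-type 1 (0.79, adjusted p = 2.64e-07) or wild-type 2 (0.42, adjusted p = 0.0363) was left out, where 10% and 3.99% of all genes passed. Without wild-type 2 and without the correction it did not (adjusted p = 0.111).

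The other licensing factors differed less. Cdt1, which brings the MCM ring to origins, had 265 and 346 CPM in wild-type and 308 and 302 CPM in knock-in libraries. The knock-in values lay between the wild-type values, and the log2 fold change was -0.0028 (SE 0.16), or 0.24 (SE 0.12) with the GC correction and 0.19 without wild-type 2. Cdc6, the ATPase that loads MCM with Cdt1, had 107 and 94.4 CPM in wild-type and 125 and 114 CPM in knock-in libraries, without overlap (log2 fold change 0.25, SE 0.15, or 0.30 with the correction). The ratio of Cdt1 to Gmnn, both per kilobase, was 1.21 and 2.15 in wild-type and 1.08 and 1.17 in knock-in libraries. Wild-type 2 alone stood high in this ratio, and the transcripts differ in GC content (57.8% for Cdt1, 49.8% for Gmnn).

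All 6 ORC genes had positive fold changes (0.21 to 0.44), and 5 lay higher without overlap, but wild-type 2 was 0.64 below wild-type 1 at the group's median on the log2 scale. The median GC content of the group is 41.5%, against 48.7% for all members. Orc6, the highest per kilobase in the unstranded counts with a range that overlapped Orc2, had 85.1 and 54.5 CPM in wild-type and 93.4 and 89.7 CPM in knock-in libraries (log2 fold change 0.39, SE 0.21). Orc4 had 34.9 and 20.8 CPM against 39.5 and 36.0 CPM (0.44, SE 0.24). In both genes wild-type 2 was far below the other 3 libraries. Without it the values were 0.091 for Orc6 and 0.10 for Orc4, and with the GC correction they were 0.33 and 0.052. With the GC correction the group median was 0.11 in place of 0.33, and 3 genes lay above without overlap: Orc1, Orc2 and Orc6. Orc1, the ATPase subunit whose amount varies through the cell cycle, had 79.6 and 76.0 CPM in wild-type and 91.8 and 88.5 CPM in knock-in libraries. Its wild-type libraries lay close together, and the fold change was 0.21 (SE 0.15) without and 0.17 (SE 0.11) with the correction.

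The MCM helicase genes were abundant and did not differ detectably. Mcm3 had 695 and 817 CPM in wild-type and 829 and 779 CPM in knock-in libraries, and wild-type 2 lay within the knock-in range. Its log2 fold change was 0.089 (95% interval -0.25 to 0.43), or 0.24 with the GC correction. Mcm5 had the lowest fold change of all members, -0.13 (SE 0.18, 95% interval -0.54 to 0.27), with 680 and 950 CPM in wild-type and 752 and 734 CPM in knock-in libraries. Here wild-type 2 was the highest library, and without it the value was 0.11, and 0.0033 with the GC correction. Mcm4 (0.14) and Mcm6 (0.19) lay higher in both knock-in libraries without overlap, and Mcm2 (-0.025) and Mcm7 (0.097) overlapped. The pattern shifted with the GC correction: Mcm3, Mcm6 (0.17) and Mcm7 (0.27) lay higher without overlap, and Mcm4 (0.049) and Mcm2 (0.11) overlapped. The 6 subunits form a ring with 1 copy of each, and their transcripts were unequal: of the summed level per kilobase, Mcm3 made up 21.2% to 22.1% over the 4 libraries, Mcm5 18.8% to 23.3%, Mcm7 18.8% to 19.7%, Mcm4 12.2% to 15.2%, Mcm2 11.6% to 13.6% and Mcm6 10.9% to 13.4%. These shares rest on exon length as annotated, 6956 bases for Mcm2 and 3589 to 4666 for the other subunits. In CPM, Mcm2 averaged 839 in wild-type and 824 in knock-in cells, above Mcm3 (756 and 804). The low place of Mcm2 therefore depends on its length.

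Of the genes that turn the loaded ring into an active helicase, Mcm10 stood out. Mcm10 (ENSMUSG00000026669, GRCm38 chromosome 2, 4989714 to 5012791, minus strand), which binds the helicase as origins fire, had 229 and 241 CPM in wild-type and 303 and 293 CPM in knock-in libraries. Uncorrected, both pairs were tight and did not overlap. With the GC correction the wild-type gap was 0.19 in place of 0.076 on the log2 scale, still without overlap between the lines. The log2 fold change was 0.35 (SE 0.14, 95% interval 0.029 to 0.66), with an edgeR adjusted p of 0.436, and 0.37 (SE 0.12, adjusted p = 0.140) with the GC correction. Leaving out wild-type 2 left it at 0.37 (4.39% of all genes called), and leaving out wild-type 1 at 0.31 (32.1% of all genes called). Mcm10 was called in both fits, but each has a lone wild-type library, and the second called many other genes too. Corrected for GC content, Mcm10 passed without wild-type 2 (0.49, 3.99% of all genes called) and not without wild-type 1 (0.28).

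Cdc45, the helicase partner, and the 4 GINS genes lay nearer 0. Gins4 had 70.8 and 76.7 CPM in wild-type and 82.6 and 76.8 CPM in knock-in libraries, with wild-type 2 and knock-in 2 almost level (log2 fold change 0.11, SE 0.15, or 0.21 with the GC correction). Gins1 was at 0.24, Gins3 at 0.11, Cdc45 at 0.035 and Gins2 at -0.093. Corrected for GC content, Gins1 stood at 0.21, Gins3 at 0.12, Cdc45 at 0.082 and Gins2 at 0.085. Without wild-type 2 and uncorrected, Gins3 turned to -0.15 and Gins2 to 0.10. Relative to Cdc45, Mcm10 stood at 1.21 and 1.14 per kilobase in wild-type and 1.43 and 1.47 in knock-in libraries, a ratio computed after the values were seen.

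At the fork, the clamp and its loader showed no detectable difference. Pcna, the sliding clamp that tethers polymerases to DNA, had 496 and 617 CPM in wild-type and 607 and 565 CPM in knock-in libraries. Wild-type 2 was the highest and wild-type 1 the lowest, and the log2 fold change was 0.075 (95% interval -0.28 to 0.43). The value was -0.039 with the GC correction, -0.072 without wild-type 1 and 0.23 without wild-type 2, so its direction is not settled. For Pcna the correction widened the gap between the wild-type libraries from 0.31 to 0.61 on the log2 scale. Of the replication factor C genes, Rfc1, the large subunit, had the highest value (0.33, SE 0.17), and Rfc2 the lowest (-0.071, SE 0.15, or 0.020 with the GC correction). Without wild-type 2 the value for Rfc1 was 0.13, and with the GC correction it was 0.29 (SE 0.12). Rfc3, Rfc4 and Rfc5 stood at 0.22, 0.072 and 0.099, and with the correction at 0.044, -0.083 and 0.22.

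The catalytic polymerase subunits spread with their GC content. Pold1, of the lagging-strand polymerase, had 230 and 329 CPM in wild-type and 260 and 253 CPM in knock-in libraries, with wild-type 2 highest (log2 fold change -0.12, SE 0.18). Pola1, of the polymerase that extends primers, had 125 and 92.1 CPM against 148 and 138 CPM, with wild-type 2 lowest (0.39, SE 0.18). Pole, of the leading-strand polymerase, stood at 0.041. After the GC correction they came together, Pold1 at 0.15, Pola1 at 0.17 and Pole at 0.13. The ligase gene Lig1, which seals Okazaki fragments, had 481 and 502 CPM in wild-type and 506 and 487 CPM in knock-in libraries, the narrowest spread of all members (log2 fold change 0.015, 95% interval -0.30 to 0.33, or 0.19 with the correction).

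Among the nucleotide supply genes, Rrm2, the regulated subunit of ribonucleotide reductase, had 496 and 394 CPM in wild-type and 590 and 543 CPM in knock-in libraries. The groups did not overlap, and wild-type 2 was the lowest. The log2 fold change was 0.35 (SE 0.16, edgeR adjusted p = 0.463), 0.29 (SE 0.12) with the GC correction, and 0.18 without wild-type 2. Rrm1, the large subunit, stood at 0.20, or 0.035 with the correction. Thymidylate synthase (Tyms) stood at -0.055, or -0.11 with the correction and 0.033 without wild-type 2. Rrm2 exceeded Rrm1 5.79 to 6.94 times per kilobase in the 4 libraries. This ratio depends on the annotated exon lengths, 11012 bases for Rrm1 and 2771 for Rrm2. In CPM the 2 genes lay much closer, with Rrm1 at 307 and 270 in wild-type and 338 and 326 in knock-in libraries.

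Of the G1/S drivers, cyclin E1 had the highest level per kilobase in the unstranded counts. Ccne1 had 316 and 333 CPM in wild-type and 391 and 354 CPM in knock-in libraries, without overlap (log2 fold change 0.20, SE 0.14, or 0.35, SE 0.12, with the GC correction, edgeR adjusted p = 0.160). Its paralog Ccne2 had 11.2 and 4.77 CPM in wild-type and 10.2 and 10.8 CPM in knock-in libraries, with only wild-type 2 apart. Its fold change of 0.38 (SE 0.34) became -0.11 without wild-type 2 and 0.025 with the correction. Ccne1 exceeded Ccne2 37.0 to 91.7 times per kilobase, an upper limit given the shared bases of Ccne2. Cdk2, the kinase that cyclin E activates, had 112 and 89.8 CPM in wild-type and 122 and 125 CPM in knock-in libraries, without overlap (0.29, SE 0.16, or 0.33, SE 0.12, with the correction). E2f1, the transcription factor gene, stood at -0.029 (95% interval -0.38 to 0.32), or 0.22 with the correction.

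**Figure D5:**
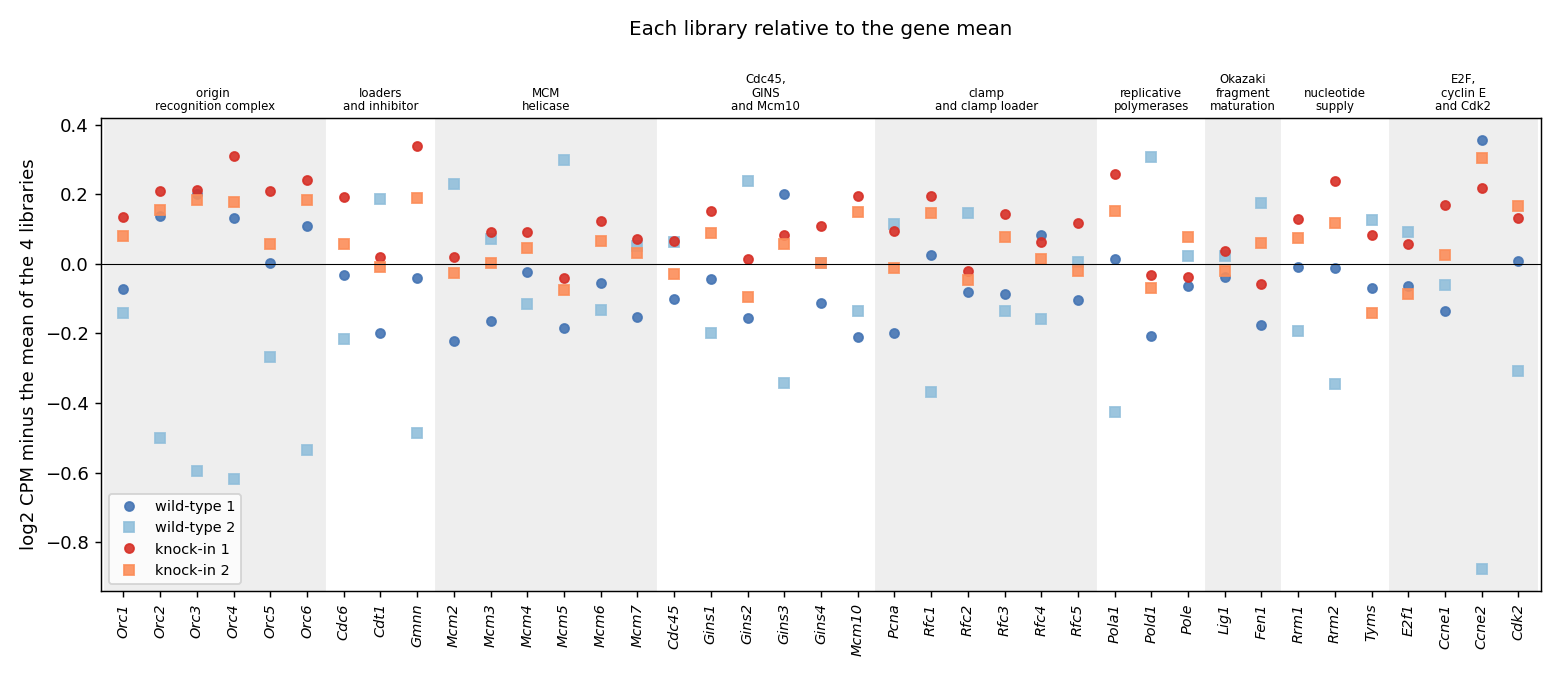
Log2 CPM of each member minus its mean over the 4 libraries, one marker per library, ordered by role. The knock-in libraries lie close together throughout, and wild-type 2 leaves the other libraries downward in Orc2, Orc3, Orc4, Orc6, Gmnn and Ccne2 and upward in Mcm5 and Pold1.

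Members with and without E2F letters were set side by side, and the difference was not tested. The 14 with letters had a median log2 fold change of 0.15 (6 higher without overlap) and the 17 without had 0.20 (9 higher). With the GC correction the medians were 0.17 and 0.18.

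Of 75 other genes of the pathway from a fixed list, 0 passed in either direction. Fold changes were above 0 in 58 and below in 17 (all genes: 50.1% above 0), and the median was 0.17 (0.15 with the GC correction). The unadjusted edgeR p was under 0.05 for 4 higher and 0 lower (all genes: 3.54% and 7.4%). By function the medians were 0.19 for firing, fork and checkpoint genes (22 genes), 0.17 for other polymerase and maturation subunits (15), 0.12 for other nucleotide genes (10), 0.15 for E2F and cyclin control (20) and 0.27 for chromatin assembly (8). The genes named are those with the highest CPM of each function, which is not a level per length. Uhrf1, which recruits maintenance methylation, stood at 0.0067 (SE 0.16), Cad, which starts pyrimidine synthesis, at -0.19 (SE 0.16) and Rpa1, of the single-strand binding protein, at 0.21 (SE 0.14). The GC-corrected values of these 3 were 0.19, 0.054 and 0.25. Topbp1 stood at 0.24 (0.20 with the correction), Dut at 0.095 (0.17), Tfdp1 at 0.15 (0.11) and Hells at 0.59 (SE 0.28, or 0.28 with it). Pold2 stood at 0.015 (0.28 with the correction), Chtf18 at -0.26 (-0.011) and E2f4 at -0.093 (0.14). Cdkn1c, a Cdk inhibitor gene and an imprinted gene, was chosen with its values known: it had 3.67 and 2.36 CPM in wild-type and 6.90 and 5.09 CPM in knock-in libraries (log2 fold change 0.99, SE 0.30, edgeR adjusted p = 0.330, or 1.21 and 0.0616 with the GC correction).

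Genes that act later in the cycle gave similar values. Of 30 mitosis genes, 0 passed and 27 were above 0 (all genes: 50.1% above 0). Without overlap 18 lay higher and 1 lower (all genes: 23.4% and 23.9%). With the GC correction 24 lay higher without overlap and 0 lower (all genes: 31.7% and 18.5%). Their median log2 fold change was 0.20, or 0.22 with the GC correction, beside 0.14 and 0.17 for the members. The highest by CPM, not per length, were Top2a (0.32, SE 0.17) and Ccnb1 (0.12, SE 0.14), and neither passed. Their GC-corrected values were 0.17 and -0.031. The difference between the lists was not tested.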

How the data were processed

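Each of the 4 deposited tables holds raw counts of reads per gene, made by the authors with STAR 2.5.3a after Trim Galore on GRCm38 (mm10), per the submitters' processing notes. The annotation release is not given in the sources used here. Symbols, positions, exon lengths and transcript GC content came from GENCODE M21, which matched 54809 of 54838 identifiers. The summary rows, 15.8% to 18.0% of reads, were left out. The strand columns split evenly (50.2% to 50.5%), so the unstranded column was used, and reads of overlapping genes on opposite strands cannot be separated.

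Tests used edgeR 4.0.16 (R 4.3.3): TMM scaling, filterByExpr (minimum count 10), quasi-likelihood F test, genotype as the only term, all 4 libraries, Benjamini-Hochberg adjustment over 15191 genes, threshold 0.05. CPM is TMM-scaled. Standard errors are |log2 fold change|/√F, and intervals are 95%. The GC correction uses as offset a natural spline with 5 df of each library's log2 CPM deviation on GC content of the longest transcript. Alternatives were DESeq2 1.42.0, limma-voom (3.58.1), other filters, left-out libraries, replicate blocks and single-strand counts. Counts were also simulated with the same dispersion for every gene (14916 genes tested). Changes were planted only in genes with a mean over 5 CPM, so recovery in genes of lower level, such as Fen1, was not examined. There 70% of 2-fold and 100% of 4-fold planted changes were recovered, with 3 false calls among 173. The simulation left out the GC trend of wild-type 2 and the wider spread of the wild-type pair, so these rates need not hold for the real libraries.

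The members and lists were chosen with earlier results of these data known. Values per library are given for members with an unadjusted p under 0.05, the highest and lowest fold change and the most abundant member of each role, with others added after values were seen. From the other lists the 2 genes of highest mean CPM were named, since none passed. Promoters are from RefSeq (GRCm38.p6). Protein sequences were not used here.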

Additional observations from a re-analysis of the deposited data

How the results depend on the processing

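The count of genes called moved most. Against 10 of all genes, it was 354 without a low-count filter, 6 with the stricter filter, 123 with DESeq2, 4 with limma-voom, 197 with the replicate block, 180 with the GC correction and 403 with both. Leaving out a library gave 16 to 5015, and with the GC correction 1567 and 646 for the wild-type libraries and 94 and 62 for the knock-in libraries, each in the order of their numbers. The number of members called was 0 to 19 when a library was left out (19 without wild-type 1, 1 without wild-type 2), 0 to 4 with the GC correction as well, and 1, Gmnn, with the GC correction and the replicate block (0.59, adjusted p = 0.00515). It was 0 under every other alternative run. The members' median log2 fold change ranged from 0.094 to 0.20 with a library left out, and moved from 0.14 to 0.24 and 0.23 with the GC correction without wild-type 2 and without knock-in 2. Between 1 and 13 members changed sign under each alternative.

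The replicate numbers were not taken as pairs: deviations of same-numbered libraries correlated at -0.12. With the replicate block the members' median was 0.14 and 0 members passed. A crossed pairing, added after seeing the data, called 509 genes and 0 members. With the bases before the start alone, 10 in place of 14 members held E2F letters. With 2 libraries per line, changes under 2-fold are often missed.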
